A study of Mus musculus with 20 samples.

Results

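Long-term haematopoietic stem cells (LT-HSC) were set against 2 types of multipotent progenitor, MPP2 and MPP3, to ask which genes the stem cells held at a level different from both. The samples were chosen by their labelled population alone: 7 LT-HSC libraries entered on one side and 13 progenitor libraries, 6 of MPP2 and 7 of MPP3, on the other, which together are all 20 libraries of the study. RNA was sequenced from cells sorted out of the bone marrow of 8-week-old mice on the C57BL/6 background. The animals carried either a Hopx knockout (KO) or intact Hopx (wild type, WT). There were 3 KO LT-HSC, 4 WT LT-HSC, 3 KO MPP2, 3 WT MPP2, 3 KO MPP3 and 4 WT MPP3 libraries. Genotype was a term of the model, and the MPP2 and MPP3 means were weighted equally, so that neither progenitor type counted more for having more libraries. The labels name no animal and no litter, so p-values measure the spread between these libraries. The labels state neither how the knockout was made nor which antibodies set the sorting gates.

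LT-HSC sit at the top of blood formation: they divide rarely, renew themselves over the life of the animal and feed the progenitor pools below them. Of the progenitors, MPP2 are biased to megakaryocytes and erythroid cells, and MPP3 to the myeloid lineages. Stem cells are held in the marrow by adhesion and cytokine signals from neighbouring cells, and are known for strong expression of drug efflux pumps and of cell cycle inhibitors.

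Reads assigned to genes numbered 12094117 to 14647699 in LT-HSC libraries and 11163345 to 15189909 in progenitor libraries, and between 14931 and 20831 genes had at least 1 read. Hopx, which encodes a small homeodomain protein, was listed at 0 in all 9 KO libraries. It lay between 11.01 and 61.2 normalized counts in 10 of the 11 WT libraries and was listed at 0 in the library labelled WT LT-HSC replicate 4, which therefore went against its genotype label. WT MPP2 replicate 3 also stood apart: its mean correlation, taken over genes rather than over replicates, was 0.885 with the MPP3 libraries and 0.848 with the other MPP2 libraries, and it held 4080.4 normalized counts of Flt3 against 94.4 to 410.3 in the other MPP2 libraries. KO MPP2 replicate 3 had the fewest detected genes, 14931, and WT MPP3 replicate 3 the next fewest, 15826. Markers of other cells were present in every population. The summed level of 13 B and plasma cell markers ran from 577 to 6289 normalized counts in LT-HSC, from 491 to 587720 in MPP2, where WT MPP2 replicate 3 was the highest, and from 3165 to 14810 in MPP3. The sum of 14 mature neutrophil markers ran from 133 to 26527 in LT-HSC, from 282 to 8760 in MPP2 and from 94.4 to 27817 in MPP3. The sum of 12 T and NK cell markers had a median of 1410 in LT-HSC, 1104 in MPP2 and 630 in MPP3. It ran from 1060 to 2127, from 788 to 1833 and from 458 to 1295 in these populations. Members at 0 in all libraries were Cd3g, Cd8a and Gzma in LT-HSC. In MPP2 they were Cd3e, Cd3g, Cd8a, Ncr1 and Gzma, and in MPP3 Cd3e, Cd3g and Gzma. None of the 14 neutrophil or 11 macrophage markers tested passed the test described below, and among 10 B and plasma cell markers tested 1, Ighm, was lower in LT-HSC, a call that edgeR did not make. Of 6 T and NK cell markers tested Lat and Klrb1c were higher, of 7 stromal and endothelial markers Kdr was higher and Pdgfrb lower, and of 6 red cell markers 0 passed. Both T and NK cell calls were lost without the stem cell library labelled WT LT-HSC replicate 4. The Kdr call was lost in 13 of 38 other fits, edgeR and each fit without 1 library labelled WT LT-HSC among them. The part of these cells in the results was not tested.

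The labels were checked against genes that define the populations. Slamf1, the CD150 surface receptor, ran from 742 through a median of 971 to 1246 normalized counts in LT-HSC, from 407 through 551 to 933 in MPP2 and from 0 through 18.2 to 32.5 in MPP3. Procr, a surface receptor of stem cells, ran from 277 through 935 to 1267 in LT-HSC, from 0 through 0 to 182 in MPP2 and from 108 through 188 to 319 in MPP3. Both genes were high in all LT-HSC libraries, while MPP2 held Slamf1 with little Procr and MPP3 held some Procr with little Slamf1. Cd34 had 1777, 3265 and 6067 normalized counts as lowest, median and highest value in LT-HSC, 918, 2659 and 12660.4 in MPP2, and 15282, 16648 and 20986 in MPP3. Myeloperoxidase, Mpo, an enzyme of neutrophil granules, reached at most 143 in LT-HSC, against a median of 8442 in MPP2 and 90037 in MPP3. MPP2 was the least uniform population: its lowest Mpo value, 91.4, lay within the LT-HSC range, its highest Cd34 value lay above that range, and WT MPP2 replicate 3 held Flt3 far above the other MPP2 libraries.

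Of 17160 genes tested, 1475 (8.6%) passed the test: 973 (5.67%) were higher and 502 (2.93%) lower in LT-HSC than in the mean of MPP2 and MPP3, at a Benjamini-Hochberg adjusted p under 0.05 in limma. Differences are given as differences of mean log2(normalized count + 1), LT-HSC minus progenitors, each with its standard error. The added 1 shrinks the difference of genes with few reads and sets its size where progenitor libraries lie at 0. The median difference over all tested genes was 0.06. A gene can pass this test because of 1 progenitor type alone, and 332 genes (1.93%) were higher and 126 (0.734%) lower against the mean, against MPP2 and against MPP3 alike. Against MPP2 alone 5.54% were higher and 2.7% lower, and against MPP3 alone 4.67% and 3.56%. Between the progenitors, 2.42% were higher and 4.67% lower in MPP2 than in MPP3. The tests of LT-HSC share the LT-HSC libraries. The genes higher against both had a median difference of 3.27, the genes lower against both one of -1.37. A mean log2 CPM of at least 3 was reached by 159 of the 332 higher and 116 of the 126 lower genes. Genes higher and lower against both numbered 153 and 116 under a stricter filter on low values, and 177 and 132 in edgeR. The excess of higher genes thus lay mostly among genes with few reads. In bulk RNA, fewer cells of a type and less RNA per cell cannot be told apart.

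**Figure D1:**
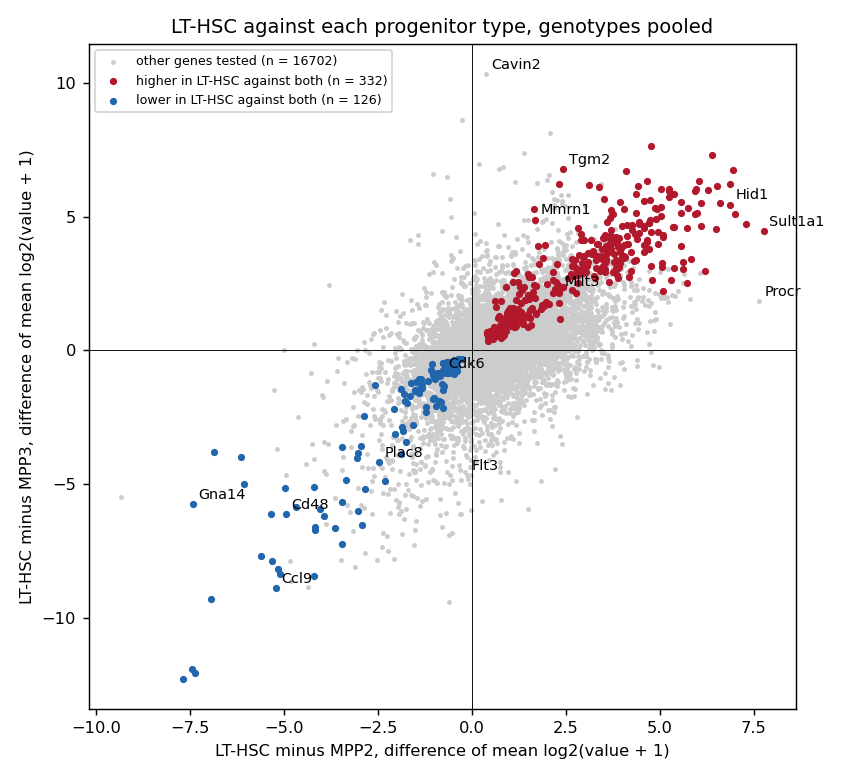
Difference of mean log2(normalized count + 1) between LT-HSC and MPP2 (horizontal axis) and between LT-HSC and MPP3 (vertical axis) for 17160 genes, 1 point per gene. The 332 genes higher against both lie in the upper right and the 126 genes lower against both in the lower left, while Cavin2 and Flt3 differed from MPP3 alone. Both axes share the LT-HSC libraries, which draws points toward the rising diagonal.

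All 7 LT-HSC libraries lay above all 13 progenitor libraries for 120 genes (0.699% of those tested), and below them for 29 genes (0.169%). Of the 332 genes higher against both progenitors, 108 were separated in this way, and of the 126 lower genes 29. Removing WT MPP2 replicate 3 and the library labelled WT LT-HSC replicate 4 together left 274 genes higher and 101 lower against both, of which 256 and 94 were in the sets named above. The sample titles carry library numbers in 4 ranges whose meaning is not given, and each range holds every population. With that range as a block, 391 genes were higher and 160 lower against both.

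Among genes above a mean log2 CPM of 3 that were higher against both progenitors and had no overlap between LT-HSC and progenitor libraries, 13 with the largest differences are described in detail. Non-overlap is part of how they were chosen and is not a result. They included 2 junctional adhesion molecules (Jam2, Jam3), a lectin receptor (Clec1a), a secreted matrix protein (Tinagl1), a transglutaminase (Tgm2), a cytoskeletal adaptor (Obsl1), a sulfotransferase (Sult1a1), a transporter (Abcg3) and a hormone receptor (Lhcgr). Their differences lay between 4.19 and 6.16 on the log2 scale, with adjusted p-values of at most 0.00424 in limma. All 13 kept the call in each fit without 1 library, which their choice by large and separated differences in the same libraries favours.

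Sult1a1 (chr7:126672865-126676432, minus strand, GRCm38) encodes an enzyme that attaches sulfate to phenolic compounds. It ran from 480.1 through a median of 1051 to 1869 normalized counts in LT-HSC, from 0 through 4.41 to 19.5 in MPP2 and from 19.2 through 44.5 to 97.1 in MPP3. The lowest LT-HSC library held several times the level of the highest progenitor library. The difference was 6.11 ± 0.57 (limma, adjusted p = 1.25e-06), made up of 7.77 against MPP2 and 4.46 against MPP3. MPP2 was itself below MPP3 for this gene, with a difference of -3.31 (limma, adjusted p = 0.00497).

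Tgm2 (chr2:158116402-158146436, minus strand), a transglutaminase that cross-links proteins, showed the opposite order of the progenitors. It ran from 1439.5 through 1634 to 2058 normalized counts in LT-HSC, from 112 through 378 to 806 in MPP2 and from 0 through 15.1 to 91.1 in MPP3. LT-HSC were above MPP2 by 2.43 and above MPP3 by 6.77, and MPP2 were above MPP3 by 4.35 (limma, adjusted p = 0.00111). The gene thus stepped down from LT-HSC over MPP2 to MPP3, with no overlap between LT-HSC and either. Gm20412, a processed transcript on the opposite strand inside Tgm2, followed the same steps. The library kit is not stated to keep strand, so reads of Gm20412 cannot be told apart from reads of Tgm2, and its values are uncertain. Antisense genes also overlap, among others, Sult1a1 (Sgf29), Obsl1 (Tmem198), Jam3 (Gm48796), Abcg3 (Gm24097) and Tgm2 itself (Rprd1b). Of the lower genes below, Gna14 is overlapped by AC126031.1 and AC126031.2, and the same limit holds for all of these.

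Obsl1 (chr1:75479310-75506452, minus strand), the cytoskeletal adaptor, ran from 383 through 564 to 884 normalized counts in LT-HSC, from 0.982 through 97.3 to 207 in MPP2 and from 0 through 50.05 to 89.2 in MPP3. LT-HSC did not overlap either progenitor, and the difference was 4.19 ± 0.87 (limma, adjusted p = 0.00424).

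The junctional adhesion molecules Jam3 (chr9:27097384-27155421, minus strand) and Jam2 (chr16:84774123-84825928, plus strand) are partners that bind each other across cell contacts. Jam3 lay between 321 and 508 normalized counts in LT-HSC, between 0 and 91 in MPP2 and between 0 and 82.9 in MPP3. Jam2 lay between 161 and 413 in LT-HSC, between 2.62 and 147 in MPP2 and between 0 and 36.4 in MPP3. Both partners were thus high in the same sorted population, and neither overlapped a progenitor library. Jam3 differed by 5.20 ± 0.87 (limma, adjusted p = 0.000616) and Jam2 by 4.49 ± 0.86 (limma, adjusted p = 0.00233).

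Hid1 (chr11:115347707-115367756, minus strand), a Golgi-associated protein of secretory granule formation, lay between 251 and 614 normalized counts in LT-HSC, with a median of 1.5 in MPP2 and 17.6 in MPP3. Lhcgr (chr17:88716481-88791990, minus strand), the luteinizing hormone receptor best known from the gonads, had a median of 452 in LT-HSC, 27.9 in MPP2 and 13.53 in MPP3. Abcg3, a member of the ATP-binding cassette transporters, had a median of 694 in LT-HSC, 7 in MPP2 and 44.2 in MPP3. Clec1a, a C-type lectin receptor, had a median of 278 in LT-HSC, 30.1 in MPP2 and 2.71 in MPP3. In each of these genes several progenitor libraries were at or near 0 while every LT-HSC library held reads. WT MPP3 replicate 3, with 15826 detected genes, and KO MPP2 replicate 1, with 16220, were at 0 for all of them. KO MPP2 replicate 3, with 14931, was at 0 for Hid1, Abcg3 and Clec1a. LT-HSC libraries had 17609 to 19596 detected genes, and the part of detection in these zeros was not tested. Tinagl1, a secreted matrix protein, Fam110c and D630039A03Rik, for which no role is given here, completed the 13, with differences of 4.82, 4.65 and 5.96.

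**Figure D2:**
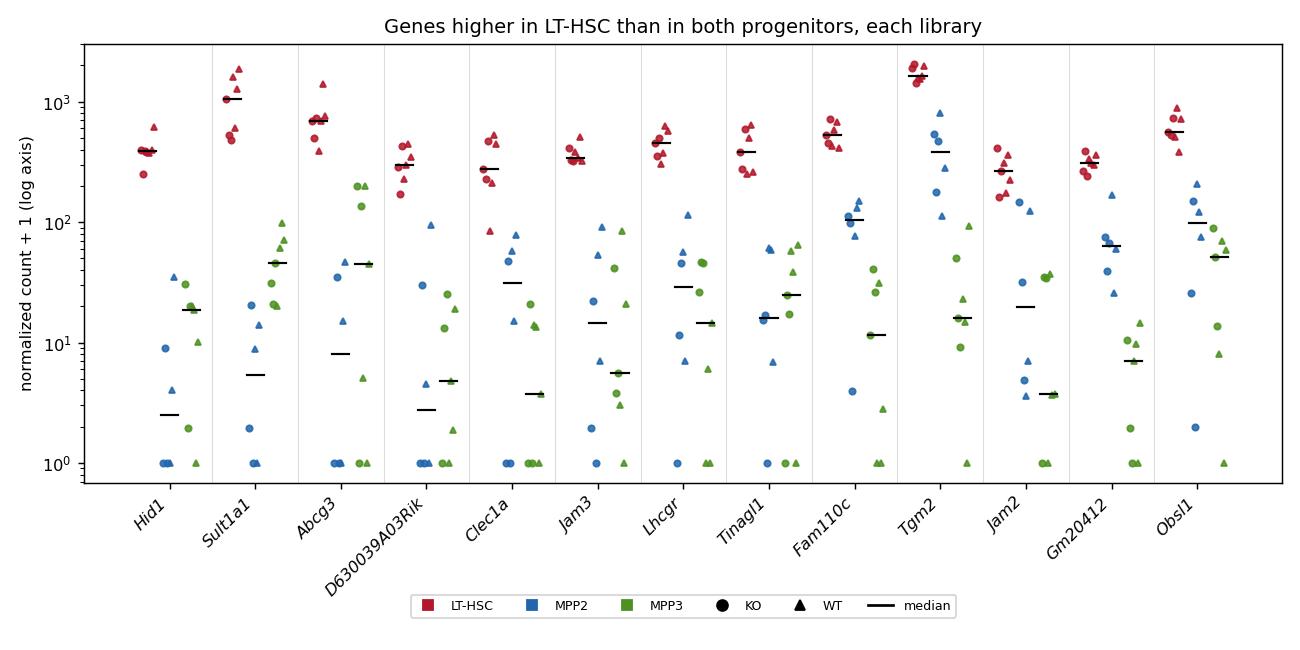
Normalized count + 1 on a log axis in each library for the 13 described genes with large positive differences and no overlap, LT-HSC left, then MPP2 and MPP3. Circles are KO, triangles WT and black bars the median of a population. Progenitor libraries reach 0 for most of the genes, while Tgm2 keeps a median of 378 in MPP2 against 15.1 in MPP3.

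At the other end, the 14 genes with the largest negative differences among those with no overlap included immune receptors and secreted factors. They were a chemokine (Ccl9), an immunoglobulin Fc receptor (Fcgr3), surface receptors (Cd48, Siglecf, Adgrg3), protease inhibitors (Cst7, Slpi), a mast cell protease (Cpa3) and a G protein subunit (Gna14). Differences lay between -7.06 and -2.18 on the log2 scale, with adjusted p-values of at most 0.000649 in limma. All 14 kept the call in each fit without 1 library, which their choice in the same way favours.

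Cd48 (chr1:171682009-171705258, plus strand), a receptor of the SLAM family whose protein is widely used to keep progenitors out of stem cell gates, ran from 2.64 through 84.8 to 476 normalized counts in LT-HSC. It ran from 1626 through 2377 to 7347 in MPP2 and from 4928 through 6574 to 7860.2 in MPP3. The difference was -5.53 ± 0.62 (limma, adjusted p = 9.62e-06), and MPP2 and MPP3 differed by -1.18 with an adjusted p of 0.398 in limma. If the sort used CD48, this gene was chosen by the gate and its difference is not a finding.

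Ccl9 (chr11:83572919-83578636, minus strand), a chemokine of myeloid cells, ran from 0 through 18 to 79.6 normalized counts in LT-HSC, from 103 through 244 to 2629.7 in MPP2 and from 2593 through 4155 to 6735 in MPP3. Its difference was -7.06 ± 0.81 (limma, adjusted p = 1.26e-05), and MPP2 was below MPP3, with a difference of -3.69 (limma, adjusted p = 0.0232). The highest MPP2 value came from WT MPP2 replicate 3 and fell within the MPP3 range. Plac8 (chr5:100553725-100572245, minus strand), a gene of myeloid and lymphoid precursors, kept the same order, with medians of 902 in LT-HSC, 5177 in MPP2 and 21697 in MPP3 and a difference of -3.33 ± 0.35 (limma, adjusted p = 5.63e-06).

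Other genes were near silence in LT-HSC and held reads in every progenitor library. Gna14 (chr19:16435762-16610820, plus strand), a G protein alpha subunit, had a median of 0 normalized counts in LT-HSC, 400.4 in MPP2 and 161 in MPP3. Siglecf, a sialic acid receptor known from eosinophils, had a median of 0 in LT-HSC, 390.0 in MPP2 and 153 in MPP3, and Fcgr3 a median of 0 in LT-HSC, 101 in MPP2 and 224 in MPP3. At most 3 of the 7 LT-HSC libraries held any read of these genes. The medians of Gna14 and Siglecf were higher in MPP2 than in MPP3 and that of Fcgr3 lower, without passing the test between the progenitors (limma, adjusted p = 0.208, 0.597 and 0.707).

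Cst7, an inhibitor of lysosomal cathepsins, differed by -5.27 ± 0.58, and Slpi, a secreted inhibitor of neutrophil elastase, by -5.05 ± 0.85. Cpa3, a carboxypeptidase stored in mast cell granules, lay between 19 and 330.0 normalized counts in LT-HSC, between 753 and 1714 in MPP2 and between 474 and 3782 in MPP3. Adgrg3, an adhesion G protein-coupled receptor, had the smallest adjusted p of the 14 in limma, 4.68e-07, at a difference of -2.42 ± 0.21. It lay between 435 and 939 in LT-HSC, between 1088 and 3278 in MPP2 and between 3678 and 7860.2 in MPP3, so the 3 populations formed steps without overlap. Lgals1 (galectin-1), Ubash3a (a regulator of T cell receptor signalling), Haao (an enzyme of tryptophan breakdown) and Palm (a membrane-associated protein) differed by -2.59, -3.55, -2.37 and -2.18.

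**Figure D3:**
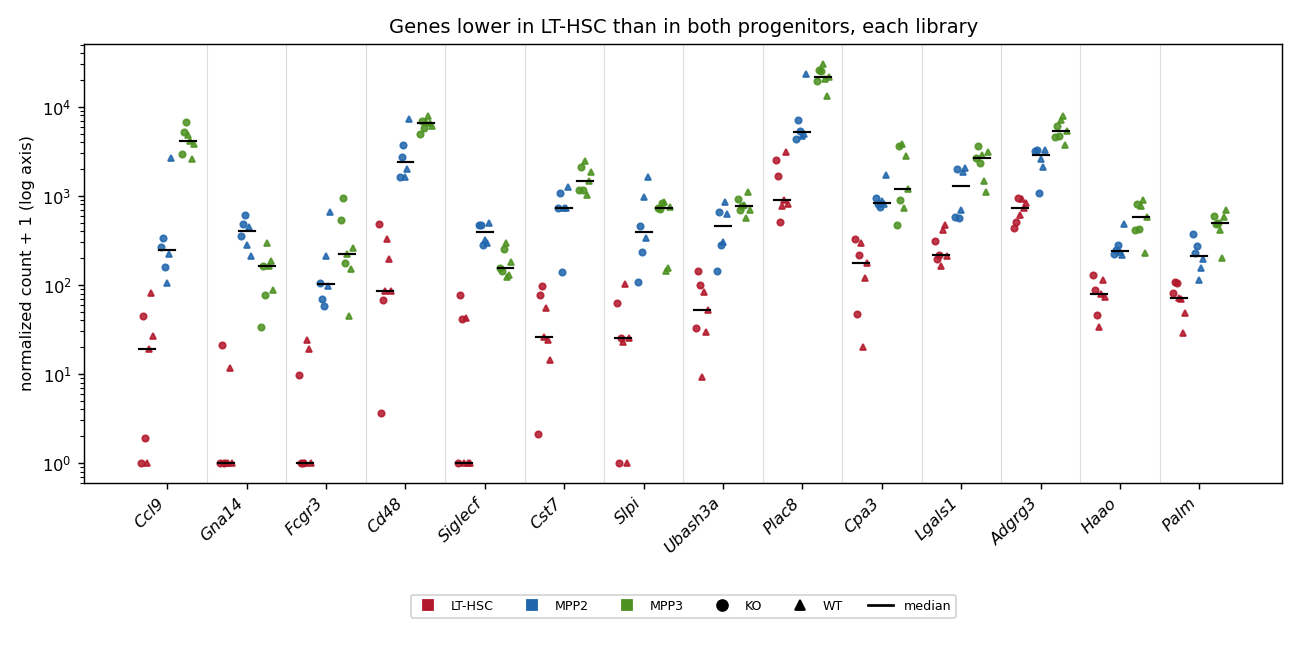
Normalized count + 1 on a log axis in each library for the 14 genes with the largest negative difference among genes with no overlap, LT-HSC left, then MPP2 and MPP3. Circles are KO, triangles WT and black bars the median of a population. Gna14, Fcgr3 and Siglecf have an LT-HSC median of 0, and 1 MPP2 triangle, WT MPP2 replicate 3, reaches the MPP3 range for Ccl9, Plac8 and Cd48.

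Groups of genes were then counted beside 5.67% higher and 2.93% lower over all tested genes. Some genes stand in more than 1 group, such as Sult1a1 and Cdkn1c. Sult1a1, listed among the surface and adhesion genes, is an enzyme. All lists were drawn up with earlier results of these data known, and the 2 stem-cell lists hold genes known from stem cells. That choice favours high counts in these lists, so the counts are not independent support. Stem-cell surface and adhesion genes stood at 23 higher and 2 lower of 30 tested, with a median difference of 2.05 beside 0.06 over all tested genes. Against MPP2 the median was 1.58 and against MPP3 2.103. Esam (chr9:37528078-37538319, plus strand), an adhesion molecule of endothelial and stem cells, ran from 2046 through 2398 to 2955 normalized counts in LT-HSC, from 260.2 through 607 to 995 in MPP2 and from 161 through 339 to 603 in MPP3. Its LT-HSC libraries lay above every progenitor library, and the difference was 2.55 ± 0.27 (limma, adjusted p = 5.63e-06). Slamf1 passed against the mean at 3.83 ± 0.59 (limma, adjusted p = 0.000315), but stood only 0.82 above MPP2, where limma gave an adjusted p of 0.521. Nrp1 and Ly6e were the 2 lower members. Slamf1, Kit, Ly6a and, among the lymphoid genes below, Flt3 are usual sorting antigens, and where the gate used one its difference is not a finding. The count of higher members was 24 without WT MPP2 replicate 3 and 17 with the library labelled WT LT-HSC replicate 4 left out. Leaving out KO LT-HSC replicate 3 made the lower members 1.

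Stem-cell transcription factors counted 25 higher and 0 lower of 39 tested, with a median difference of 1.34, 12 of them higher against both progenitors. The choice of this list favours such a count. Mllt3 (chr4:87769925-88033364, minus strand), a reader of acylated histones known to keep up stem cell self-renewal, ran from 1002 through 1604 to 2777 normalized counts in LT-HSC, from 176 through 386 to 476 in MPP2 and from 177 through 447 to 603 in MPP3. The 2 progenitor types lay at nearly the same level, and the difference of LT-HSC from their mean was 2.27 ± 0.27 (limma, adjusted p = 1.64e-05). Sox18, a factor of endothelial development, was low but separated, at 57.7 to 223 in LT-HSC, 0 to 54.3 in MPP2 and 0 to 6.28 in MPP3. Hoxb5, a homeobox gene that marks long-term stem cells, lay between 92.6 and 359.9 in LT-HSC, between 0 and 83.5 in MPP2 and between 0 and 18.8 in MPP3. Meis1, a partner of Hox proteins, differed by 0.96 ± 0.13 (limma, adjusted p = 8.4e-05).

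Imprinted genes, which are expressed from 1 parental copy and are known to be high in stem cells, counted 7 higher and 0 lower of the 14 tested, with a median difference of 1.90. The other 11 of the 25 on the list did not pass the filter on low values. A gene near 0 in both progenitors, such as Snrpn, could pass that filter through its LT-HSC libraries alone. The filter can therefore favour members high in LT-HSC, and the share and median hold for the tested members only. Snrpn lay between 16.7 and 105 normalized counts in LT-HSC, between 0 and 0.874 in MPP2 and between 0 and 4.72 in MPP3. Grb10, an adaptor that dampens growth factor signalling, had a median of 839.6 in LT-HSC, 378 in MPP2 and 94.8 in MPP3. Cdkn1c, the imprinted CDK inhibitor p57, ran from 216 through 434 to 752 in LT-HSC, from 35.5 through 59.1 to 93.3 in MPP2 and from 16.8 through 35.2 to 201 in MPP3. It differed by 3.06 ± 0.38 (limma, adjusted p = 3.37e-05), with 1 MPP3 library close below the LT-HSC range. Snrpn was separated from every progenitor library and differed by 4.997 ± 0.47 (limma, adjusted p = 1.41e-06).

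Cdkn1c was also among the 6 higher members of 26 cell cycle inhibitors and quiescence genes, a list with 0 lower members and a median of 0.31. The others were Cish, Socs2, Nupr1, Pdk4 and Gadd45b, so Cdkn1c was the only CDK inhibitor called. Against MPP2 alone 4 members were higher and 1 lower, and against MPP3 alone 7 and 2. Cish and Socs2, which damp cytokine signals, were higher by 2.41 ± 0.32 (limma, adjusted p = 6.43e-05) and 3.92 ± 0.75 (limma, adjusted p = 0.00224). Socs2 did not pass against MPP2 alone, with a difference of 2.18 and a limma adjusted p of 0.143. Among 14 G1 cyclins and CDKs, Mycn and Ccnd2 were higher and Cdk6, Cdk4 and Myc lower. Cdk6 (chr5:3341485-3531008, plus strand), the kinase that carries stem cells out of rest, lay between 4739 and 7484 normalized counts in LT-HSC, between 9775 and 12885 in MPP2 and between 10681 and 12967 in MPP3. The difference was small and tight, -0.81 ± 0.09 (limma, adjusted p = 8.92e-06), with no overlap. Mycn, a growth-promoting transcription factor, lay between 2252 and 4134 in LT-HSC, between 494 and 2235 in MPP2 and between 267 and 1033 in MPP3.

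No gene of DNA replication or mitosis was higher in LT-HSC. Replication genes counted 0 higher and 13 lower of 31, with a median of -0.40. Dut, which clears dUTP from the nucleotide pool, had a median of 4100.2 normalized counts in LT-HSC, 7264 in MPP2 and 4671 in MPP3. It differed by -0.53 ± 0.10 (limma, adjusted p = 0.00203). Mcm7, a subunit of the replicative helicase, was the 1 member lower against both progenitors. The count depended on single libraries: it was 2 without WT LT-HSC replicate 3, 4 without WT LT-HSC replicate 2, 6 without KO LT-HSC replicate 1, and 8 without KO MPP3 replicate 2, WT MPP3 replicate 4 or the library labelled WT LT-HSC replicate 4.

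Mitosis genes counted 0 higher and 10 lower of 30, with a median of -0.72. They set LT-HSC apart from MPP2 more than from MPP3: 19 members were lower than in MPP2 and 1 than in MPP3, beside 2.7% and 3.56% of all tested genes lower in those comparisons. The direct comparison of the progenitors found 7 members higher in MPP2 than in MPP3 and 0 lower. Top2a, which untangles DNA before division, ran from 1899.9 through 2938 to 5834 normalized counts in LT-HSC, from 6952 through 8307 to 10162 in MPP2 and from 3399.9 through 4549 to 6661 in MPP3. LT-HSC lay wholly below MPP2 and overlapped MPP3, and the difference from the mean was -1.02 ± 0.19 (limma, adjusted p = 0.00134). Ect2, an exchange factor that starts cytokinesis, was the 1 member lower against both, by -1.67 ± 0.31 (limma, adjusted p = 0.00169). The count of lower members was 6 without the stem cell library labelled WT LT-HSC replicate 4 or WT LT-HSC replicate 3, 16 without WT LT-HSC replicate 1 and 20 without WT MPP3 replicate 2. With the library-number range as a block it was 17, and 26 members were lower than in MPP2.

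Many promoters of mitosis genes hold a short element, the cell cycle genes homology region (CHR), through which they are shut off in resting cells. The letters TTTGAA, or TTCAAA on the other strand, were looked for in the 250 bases before each gene's start, in RefSeq promoters of build GRCm38.p6. A gene with several promoters was counted once, as a match if any of them held the letters. They were found for 10 of the 26 mitosis genes with a promoter in the table (38.5%). The counts were 4934 of all 27025 genes with a promoter (18.3%) and 1463 of the 11003 tested ones (13.3%). Of the 10 mitosis genes that were lower in LT-HSC, 7 had a promoter in the table and 4 of them held the letters. The 100 bases that hold the match nearest to the start are shown for those 4, with the letters in capitals, to let the element and its surroundings be compared. All 4 lie on the minus strand and are written in the direction of transcription: Mki67 at chr7:135716418-135716517, Top2a at chr11:99024190-99024289, Cdk1 at chr10:69352913-69353012 and Ect2 at chr3:27153933-27154032.
Mki67: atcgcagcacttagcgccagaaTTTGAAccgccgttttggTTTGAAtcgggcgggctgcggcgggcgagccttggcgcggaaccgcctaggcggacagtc
Top2a: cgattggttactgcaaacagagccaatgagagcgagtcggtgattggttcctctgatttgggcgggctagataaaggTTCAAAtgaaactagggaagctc
Cdk1: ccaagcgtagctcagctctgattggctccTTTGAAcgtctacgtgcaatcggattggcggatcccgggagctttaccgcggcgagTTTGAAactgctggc
Ect2: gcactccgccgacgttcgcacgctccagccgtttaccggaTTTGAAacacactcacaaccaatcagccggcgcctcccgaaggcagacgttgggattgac
The Mki67 and Cdk1 windows hold the letters at 2 places and the Top2a and Ect2 windows at 1, in Top2a on the other strand. The Top2a window also holds a GATA motif, the letters agataa, just before the capitals and without overlap. A match describes the sequence and does not show that a factor binds there. Among genes higher in LT-HSC against both progenitors, AGATAA or TTATCT stood before 27 of the 236 with a promoter (11.4%). The shares were 11.4% of all genes with a promoter and 7.63% of the tested ones. The ETS motif CCGGAAGT or ACTTCCGG stood before 6 of the 236 (2.54%). Its shares were 3.23% of all genes with a promoter and 6.47% of the tested ones.

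Ribosome, respiratory chain and glycolysis genes were counted next. Among 39 cytosolic ribosomal protein genes 0 were higher and 0 lower, with a median of 0.00, and at an adjusted p of 0.0612 in limma the member with the smallest p was Rpl4, at -0.15 ± 0.05. Ribosome assembly genes counted 0 higher and 1 lower of 30, with a median of -0.20, and the 1 call, Nhp2, was lost without any of 14 single libraries. Nuclear genes of the respiratory chain counted 0 higher and 6 lower of 39, with a median of -0.24. Cox5a, a subunit of cytochrome c oxidase, had a median of 5431 normalized counts in LT-HSC, 8769.6 in MPP2 and 7150.4 in MPP3, and differed by -0.54 ± 0.09 (limma, adjusted p = 0.000577). Against MPP2 alone 14 of the 39 were lower, and against MPP3 alone 3. The 6 became 3 without KO LT-HSC replicate 3, WT LT-HSC replicate 2 or WT MPP2 replicate 2, and 10 without WT LT-HSC replicate 1 or with the library-number range as a block. Glycolysis genes counted 2 higher and 1 lower of 20.

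**Figure D4:**
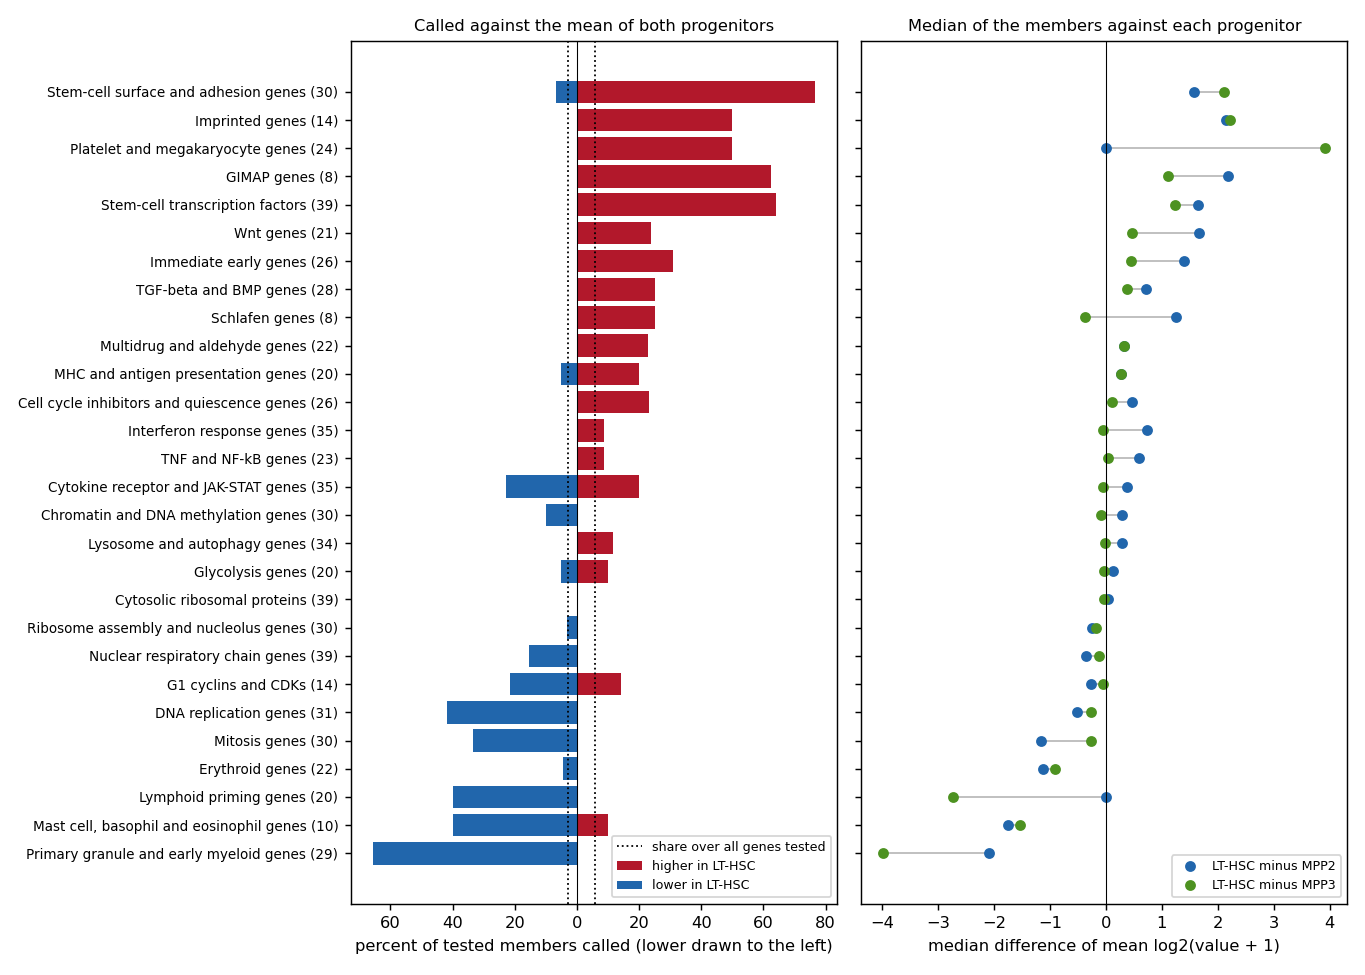
Left, percent of the tested members of each gene list that were higher (right of 0) or lower (left of 0) in LT-HSC than in the mean of MPP2 and MPP3, with the number tested in brackets and dotted lines at 5.67% and 2.93%, the shares over all tested genes. Right, median difference of mean log2(normalized count + 1) of the members, LT-HSC minus MPP2 in blue and LT-HSC minus MPP3 in green. Platelet and lymphoid genes have their median near 0 against MPP2 and far from 0 against MPP3.

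Lineage genes showed which differences were shared by both progenitors and which came from 1 of them. Primary granule and early myeloid genes counted 0 higher and 19 lower of 29, with a median of -3.33, the lowest of the lists on blood lineages, beside 2.93% of all tested genes lower. Against MPP2 10 members were lower and against MPP3 23, with medians of -2.09 and -3.98, and 11 were lower in MPP2 than in MPP3. Nkg7, a membrane protein of cytotoxic and granule-bearing cells, lay about as far below either, with medians of 2202 normalized counts in LT-HSC, 8408 in MPP2 and 6888 in MPP3 and a difference of -1.73 ± 0.19 (limma, adjusted p = 7.61e-06). Tyrobp, a signalling adaptor of myeloid and NK cells, ran from 39 through 46.4 to 486 in LT-HSC, from 148 through 539.7 to 1837 in MPP2 and from 2090.2 through 2539 to 3142 in MPP3. KO LT-HSC replicate 1, which had the highest neutrophil marker sum among LT-HSC, was the high LT-HSC library for Tyrobp. The count was 19 without WT MPP2 replicate 3 and 15 with the library labelled WT LT-HSC replicate 4 left out.

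Platelet and megakaryocyte genes counted 12 higher and 0 lower of 24, with a median of 1.83. The median was -0.00 against MPP2 and 3.92 against MPP3, and 18 members were higher in MPP2 than in MPP3. Against MPP2 2 members were higher in LT-HSC, Mmrn1 among them, and against MPP3 18. Mmrn1 (chr6:60924976-60989378, plus strand), multimerin of platelet granules and vessel walls, ran from 4643 through 7618 to 7826 normalized counts in LT-HSC, from 1171 through 1808 to 3356 in MPP2 and from 104 through 240.1 to 364 in MPP3. The populations formed 3 steps without overlap, and the difference was 3.29 ± 0.23 (limma, adjusted p = 3.98e-08). Cavin2, a coat protein of caveolae, and Gp9, a subunit of the platelet receptor for von Willebrand factor, separated LT-HSC from MPP3 but did not pass against MPP2. Cavin2 had a median of 2076 in LT-HSC, 2259 in MPP2 and 0 in MPP3, and Gp9 one of 1090.1 in LT-HSC, 967 in MPP2 and 85.4 in MPP3. Both passed against the mean of the progenitors and lost the call when the 13 progenitor libraries were taken as 1 group.

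Lymphoid priming genes mirrored this, with 0 higher and 8 lower of 20 and a median of -1.25, made up of -0.00 against MPP2 and -2.73 against MPP3. Flt3, a receptor tyrosine kinase of multipotent and lymphoid progenitors, ran from 159 through 236 to 863 in LT-HSC, from 94.4 through 247 to 4080.4 in MPP2 and from 6518 through 7354 to 13242 in MPP3. LT-HSC differed from MPP3 by -4.67 (limma, adjusted p = 2.65e-05) and from MPP2 by -0.14 (limma, adjusted p = 0.919). Ikzf1, the Ikaros transcription factor, was 1 of 2 members lower against both, by -1.01 ± 0.17 (limma, adjusted p = 0.000866), with all 7 LT-HSC libraries below all progenitors. The other was Tespa1, a gene of T cell development, at -5.45 ± 0.86 (limma, adjusted p = 0.000376). The count of 8 became 5 without WT LT-HSC replicate 1, WT LT-HSC replicate 2 or the library labelled WT LT-HSC replicate 4. Beside these genes, the immunoglobulin heavy chain gene Ighm reached 176989 normalized counts in WT MPP2 replicate 3.

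Erythroid genes counted 0 higher and 1 lower of 22. The 1 call, Car1, a carbonic anhydrase of early red cells, rested on an adjusted p of 0.0498 in limma and was lost without any of 16 single libraries. Its values ran from 0 through 1.09 to 19947 in LT-HSC, from 1989 through 25769 to 66130.0 in MPP2 and from 0 through 13323 to 21953 in MPP3. KO LT-HSC replicate 2 lay within the MPP3 range while 2 MPP3 libraries were at 0. Mast cell, basophil and eosinophil genes counted 1 higher and 4 lower of 10, and 2 lower in edgeR. Mcpt8, a basophil protease, had medians of 0 in LT-HSC, 4.17 in MPP2 and 343 in MPP3, and Gata2, which stem cells also use, was the higher member at 0.93 ± 0.18 (limma, adjusted p = 0.00281).

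Cytokine receptor and JAK-STAT genes counted 7 higher and 8 lower of 35. The higher members included Cish, Socs2, Jak2 and Kit, and the lower ones Il1r1, Csf1r, Csf2rb, Il7r and Flt3, receptors of inflammatory, myeloid and lymphoid signals. Il1r1, the interleukin-1 receptor, had medians of 48.5 normalized counts in LT-HSC, 144 in MPP2 and 641 in MPP3. All of the 8 but Ifngr1 were also lower than in MPP3 alone, and 0 passed against MPP2 alone. The counts were 4 higher without the stem cell library labelled WT LT-HSC replicate 4, KO LT-HSC replicate 3 or WT LT-HSC replicate 3. The lower count was 5 without WT LT-HSC replicate 1 and 4 without WT LT-HSC replicate 2.

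TGF-beta and BMP genes, whose signals are known to hold stem cells at rest, counted 7 higher and 0 lower of 28, with a median of 0.61. Eng, a co-receptor of the pathway, lay between 1673 and 2664 normalized counts in LT-HSC, between 679 and 1662 in MPP2 and between 970.0 and 1506 in MPP3, and was the 1 member higher against both, by 0.97 ± 0.16 (limma, adjusted p = 0.000585). Tgfbr3, another co-receptor, was 3.71 above MPP3 (limma, adjusted p = 7.11e-09) and 0.38 above MPP2 (limma, adjusted p = 0.387). The count was 3 without KO LT-HSC replicate 1 or 3, and 4 without WT LT-HSC replicate 3 or the library labelled WT LT-HSC replicate 4.

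Wnt genes counted 5 higher and 0 lower of 21, and 2 higher in edgeR. Sfrp1, a secreted Wnt inhibitor, held reads in all 7 LT-HSC libraries, at 33.9 through 67.2 to 233 normalized counts, was listed at 0 in all 6 MPP2 libraries and reached at most 2.73 in MPP3. No fold is given for it against MPP2. Fzd9, a Wnt receptor, lay between 19.1 and 133 in LT-HSC, between 0 and 16 in MPP2 and between 2.1 and 118 in MPP3, and did not pass against MPP3.

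Immediate early genes counted 8 higher and 0 lower of 26, with a median of 0.89, made up of 1.40 against MPP2 and 0.45 against MPP3. Nr4a1, an orphan nuclear receptor, had medians of 871 normalized counts in LT-HSC, 54.9 in MPP2 and 385 in MPP3, and Egr1, a zinc finger factor, medians of 6083 in LT-HSC, 1521 in MPP2 and 1963 in MPP3. Both are known to be induced by cell handling as well as by signals in the tissue. The count of 8 became 2 without WT LT-HSC replicate 2, 3 without the stem cell library labelled WT LT-HSC replicate 4 or KO LT-HSC replicate 3, and 5 without WT LT-HSC replicate 1, KO MPP2 replicate 2 or KO MPP3 replicate 2. With the library-number range as a block the count was 14. TNF and NF-kB genes counted 2 higher and 0 lower of 23, and 4 higher under that block. The 2 higher members, Ltb (lymphotoxin beta) and Nfkbiz (an inhibitor of NF-kB), were low in MPP2, with medians of 706 and 397 in LT-HSC, 60.5 and 57.3 in MPP2, and 432 and 445 in MPP3.

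Interferon response genes counted 3 higher and 0 lower of 35. Ifitm3, a membrane protein that blocks virus entry, lay between 14319 and 20949 normalized counts in LT-HSC, between 5855 and 14148 in MPP2 and between 7724 and 13791 in MPP3, and was the 1 member higher against both. Against MPP2 alone 7 of the 35 were higher and against MPP3 alone 1, and 9 were lower in MPP2 than in MPP3. The count of 3 became 5 without WT MPP2 replicate 3 and also with the library-number range as a block. Genes of the major histocompatibility complex and of antigen presentation counted 4 higher and 1 lower of 20, and 2 higher without WT LT-HSC replicate 3.

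Multidrug and aldehyde genes counted 5 higher and 0 lower of 22, and 8 higher without WT MPP2 replicate 3. The 5 were Sult1a1, Aldh1a1, Abcb1a, Abcg2 and Gstt1, of which Sult1a1 and Gstt1 are neither efflux pumps nor aldehyde enzymes. Abcg2, the pump behind the side population of stem cells, lay between 2423 and 3456 normalized counts in LT-HSC, between 795 and 2529 in MPP2 and between 816 and 1393 in MPP3. Abcb1a, another efflux pump, lay between 38.9 and 136 in LT-HSC, between 0 and 14 in MPP2 and between 0 and 23.9 in MPP3. Aldh1a1, an aldehyde dehydrogenase that makes retinoic acid, had medians of 1769, 547 and 172 in LT-HSC, MPP2 and MPP3. All 3 were higher against both progenitors, by 1.16, 4.37 and 2.83 over their mean, with limma adjusted p-values of 0.00023, 0.000176 and 3.88e-05.

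Of 8 GIMAP genes, GTPases of lymphocyte survival, 5 were higher and 0 lower, with a median of 1.52. Gimap5, which maintains lymphocytes and stem cells in mice, lay between 831 and 1249 normalized counts in LT-HSC, between 167 and 432 in MPP2 and between 213 and 704 in MPP3, a difference of 1.69 ± 0.23 (limma, adjusted p = 6.62e-05). Of 8 Schlafen genes 2 were higher, led by Slfn2, a gene of lymphocyte quiescence, with medians of 965 in LT-HSC, 86.5 in MPP2 and 147 in MPP3. Lysosome and autophagy genes counted 4 higher and 0 lower of 34. Gabarapl1, which helps to close autophagosomes, differed by 1.002 ± 0.14 (limma, adjusted p = 0.000102) with no overlap. Chromatin and DNA methylation genes counted 0 higher and 3 lower of 30, among them Ezh2, the histone methyltransferase of polycomb complex 2, at -0.53 ± 0.13 (limma, adjusted p = 0.0121).

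The study's genotypes were pooled above, so the LT-HSC difference was also taken within each. All 332 genes higher and all 126 genes lower against both progenitors had the same sign in KO and in WT, which the pooled fit itself favours. For the 13 named higher genes the difference lay between 3.90 and 6.63 in KO and between 3.86 and 6.24 in WT. For the 14 named lower genes it lay between -7.92 and -1.99 in KO and between -6.91 and -2.31 in WT. The shared sign of the named genes is not a result, since their choice by non-overlap fixed it in advance. A test of whether the LT-HSC difference depended on genotype called 0 of 17160 genes (0%) in limma. At an unadjusted p under 0.05 it held 388 genes (2.26%), edgeR called 0 and DESeq2 called 36. Among these 27 genes the smallest unadjusted p of this test was 0.0665, for Ubash3a, which differed by -2.66 in KO and by -4.28 in WT. The smallest unadjusted p over all genes, 0.000413, belonged to Arhgef26, a guanine nucleotide exchange factor. It held 0 to 3.63 normalized counts in KO LT-HSC, against 39.9 to 104 in the libraries labelled WT LT-HSC, of which replicate 4, with Hopx at 0, was the highest, and at most 5.41 in the progenitors, and its adjusted p in limma was 0.999987. With 3 KO and 4 WT LT-HSC libraries, a gene short of the threshold is not shown to be alike in both genotypes.

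**Figure D5:**
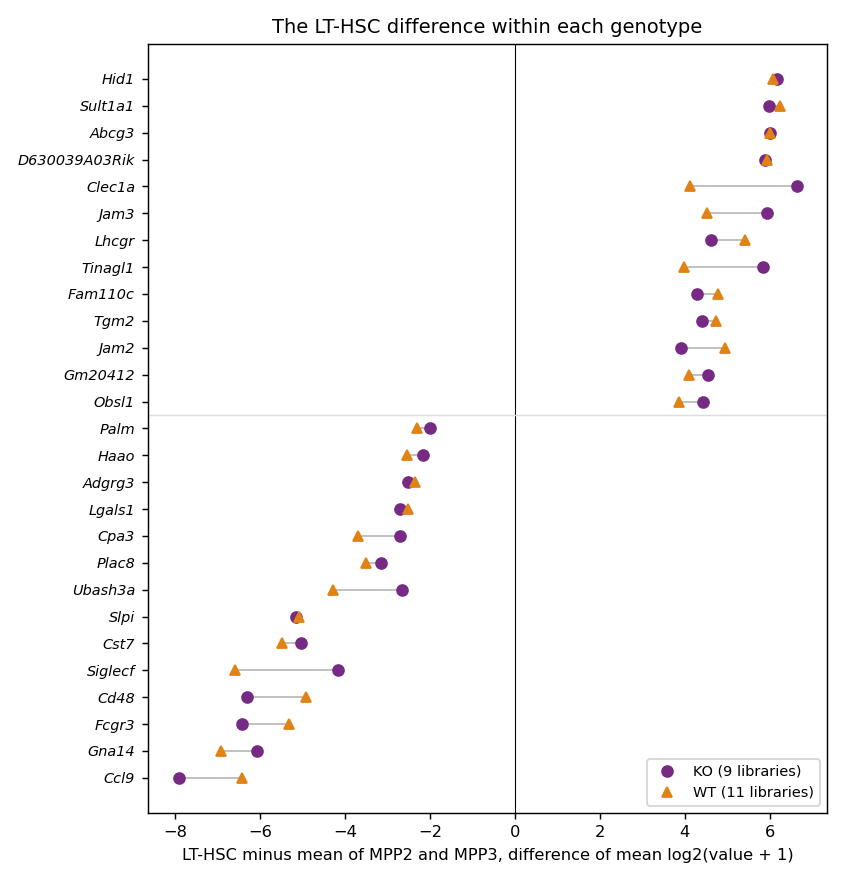
Difference of mean log2(normalized count + 1), LT-HSC minus the mean of MPP2 and MPP3, within the 9 KO libraries (circles) and within the 11 WT libraries (triangles) for the 13 higher and 14 lower named genes. KO and WT lie on the same side of 0 for all 27, which their choice by non-overlap fixed in advance. The widest gap, 2.50 for Clec1a, has an unadjusted p of 0.161 in limma.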

How the data were processed

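RNA from 20 sorted populations (7 LT-HSC, 6 MPP2, 7 MPP3) was sequenced after Nextera XT preparation. The deposited values are a normalized signal, gene counts divided by a size factor per library, made by the authors; per the submitters' processing notes the tools were TopHat2 2.1.1, HTSeq 0.11.2 and DESeq, with build GRCm38. No source used here states the annotation release or the strand setting. In the text these values are called normalized counts.

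From there, 5 summary entries were left out, and 45143 of 45706 identifiers were matched to GENCODE M21 (563 were not). Whole reads were recovered from the steps between low values: 100% of values were whole within 1e-06. In 2 libraries a read was worth within 0.01 of 1, so edgeR was also run on the other 18. Genes passing edgeR's filterByExpr over the 6 groups (17160) were tested on log2(value + 1) with limma 3.58.1 in R 4.3.3, with population and genotype as terms. A gene could pass this filter through the libraries of 1 population alone. A call is a Benjamini-Hochberg adjusted p under 0.05. Genotype dependence was tested in a model of 6 group means. edgeR 4.0.16 (quasi-likelihood) and DESeq2 1.42.0 on recovered reads were alternatives, beside other pseudocounts, filters, scalings, covariates and left-out libraries.

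The members and gene lists were chosen with earlier results of these data known. Named genes were the 14 per direction with the largest difference among those called against the mean, MPP2 and MPP3, with no overlap and with mean log2 CPM not under 3, up to 4 members per list by smallest p, and the genes with the smallest p for genotype dependence. A few genes that met this rule are not reported here and were not replaced. Other members are named from the counts, after their values were seen. On simulated counts for the LT-HSC contrast over 17160 genes, limma recovered 85% of 100 genes changed by a log2 fold of 2 and 99% of 100 changed by 3, with 12 false calls. The changed genes were drawn only from those with a mean log2 CPM not under 3, and MPP2 and MPP3 were given the same mean. Recovery of genes with lower levels was not tested. The 24 pairs of same-group libraries differed beyond counting noise, by a chi-square of at least 30.8 per gene, so all libraries were kept as separate replicates. Depth was 11163345 to 15189909 reads in genes.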

Additional observations from a re-analysis of the deposited data

Results flagged for a closer look

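In 8 of 81 groups of libraries from 1 population, over the 27 genes with the largest differences described above, the highest or lowest library stood far from the others, where chance flags about 1 in 20 groups. WT MPP2 replicate 3 was the highest of the MPP2 libraries for Ccl9 (2629.7 normalized counts), Plac8 (23100.0), Cpa3 (1714) and Haao (483). KO MPP2 replicate 3 was the lowest MPP2 library for Fam110c (2.95) and Cst7 (139). Cd48 was lowest among LT-HSC in KO LT-HSC replicate 2 (2.64), and Palm was lowest among MPP3 in WT MPP3 replicate 2 (201).

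For 7 of the 27 genes the LT-HSC difference was not the same against the 2 progenitor types, by the limma test of MPP2 minus MPP3. Tgm2 (4.35) and Gm20412 (3.92), which may share reads, were higher in MPP2 than in MPP3. Sult1a1 (-3.31), Ccl9 (-3.69), Plac8 (-1.70), Adgrg3 (-1.15) and Palm (-1.23) were lower in MPP2 than in MPP3.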

How the results depend on the processing

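Counts are given as genes higher and lower against the mean, then higher and lower against both progenitors, which were 973, 502, 332 and 126. They moved by over 1.5 times as follows; the causes were not tested, beyond fewer libraries or genes entering some fits. A stricter filter gave 520 higher and 153 higher against both. edgeR gave 177 higher against both on all libraries, and 580, 313, 80 and 76 on 18 libraries. DESeq2 gave 211 lower against both and 36 genes with genotype dependence. Taking the 13 progenitor libraries as 1 group gave 319 lower. WT libraries alone gave 282, 146, 35 and 18, and KO libraries alone 77, 35, 17 and 0. Smaller moves came from leaving out 1 library at a time, which gave 684 to 1118, 349 to 587, 231 to 362 and 91 to 148, and 0 genes with genotype dependence.

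No paired analysis was run, since the labels name no animal and replicate numbers follow accession order. Libraries numbered 52 to 54, 101 to 103, 115 to 117 and 118 to 120 each held 1 library per population, of 1 genotype. By reads of Xist and of Y-linked genes, 9 of the 20 libraries were female and 11 male, and each of those sets was of 1 sex. Whether the libraries of a set share an origin was not tested, and the main fit treated all libraries as independent. Adding sex as a covariate gave counts of 1029, 558, 345 and 138. With the library-number range as a block, whose meaning is not stated, the counts were 1160, 675, 391 and 160. Under that block the 1 erythroid call was lost, 2 ribosome assembly genes were lower and 2 chromatin genes were higher.

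Directions turned for 4 genes that were not called. Lcn2 (main value -1.10) was 2.06 in edgeR and 1.98 on 18 libraries. Cxcr2 (-0.81) was 0.41 on 18 libraries and 1.77 in KO alone, and Alas2 (-0.60) 0.30 and 0.69. Hopx (-0.44) was -0.72 to 0.29 without 1 library and 0.33 without both doubted libraries, WT MPP2 replicate 3 and the library labelled WT LT-HSC replicate 4, an alternative chosen after seeing the data. Of 115 named genes called, 23 kept the call in every setting that gave an adjusted p, and 60 lost it only with WT or KO libraries alone. DESeq2 gave no adjusted p for 9 named genes, Hid1, Sox18 and Tyrobp among them, and these are not counted as lost.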
